A study of Mus musculus with 18 samples.

Results

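The genes described here are the mouse nuclear genes that encode the proteins of the mitochondrial ribosome. They were taken by name, as every row of the deposited expression table whose symbol begins with Mrpl or Mrps followed by a digit. The rule found 77 of 23949 genes: 50 encode proteins of the large subunit, 26 encode proteins of the small subunit, and 1, Mrps36, carries a historical name only. Of the 77, 76 passed the filter on low values (at least 1 RPKM, a read count scaled for transcript length and sequencing depth, in 3 or more of 18 libraries), as did 11520 genes in all. Mrpl23 did not pass.

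The cells were regulatory T (Treg) cells, sorted as CD4+CD25hi cells from C57BL/6 mice, in 6 groups of 3 libraries. The transgenic groups overexpressed, in T cells, microRNAs of the miR-23 cluster: miR-23 Tg, miR-24 Tg and miR-27 Tg each carried a transgene for a lone member of the cluster, and cluster Tg carried the entire cluster. DKO cells had a T cell-specific deletion of both clusters, miR-23a and miR-23b, and WT cells served as the reference. The series title names CD4cre, a Cre recombinase driven by the CD4 promoter, which acts in all T cells that pass the stage where CD4 is expressed and not in Treg cells alone. The genotype labels of the last 2 groups read "DKO Tg" and "WT Tg", and which alleles the WT mice carried is not stated there. Nothing in the labels says that the 3 libraries of a group came from separate animals, so p-values measure the spread between these libraries, which may be technical in part.

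Mitochondria keep a small genome that encodes core subunits of the respiratory chain and of ATP synthase, and translate its messages on ribosomes of their own. All proteins of these mitoribosomes are encoded in the nucleus, made in the cytosol and imported, then assembled on ribosomal RNA made inside the organelle. Some of them descend from bacterial ribosomal proteins, while others were added in the mitochondrial lineage. In T cells, mitochondrial translation is known to support activation and effector function, and Treg cells rely strongly on oxidative metabolism. A microRNA lowers messages that pair with its seed, bases 2 to 8 from its 5′ end, most often in the 3′ untranslated region (3′ UTR).

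The 3 mature microRNAs, from RefSeq (GRCm38.p6), are shown because the groups differ in them. Seeds are in capitals.
miR-23a-3p: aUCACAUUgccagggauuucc
miR-24-3p: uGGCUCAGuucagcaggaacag
miR-27a-3p: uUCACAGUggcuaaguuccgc
On GRCm38.p6 the miR-23a-3p sequence lies on the plus strand of chromosome 8, at chr8:84208563-84208583. Mature miR-27a-3p lies at chr8:84208727-84208747 on that strand, and a copy of miR-24-3p at chr8:84208875-84208896. The other copy of miR-24-3p lies at chr13:63301251-63301272. The 3 seeds differ from each other, although those of miR-23 and miR-27 share their first 5 letters.

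Seed complements were searched in the longest annotated 3′ UTR (GENCODE vM21, GRCm38) of each gene, which need not be the one used in Treg cells. Of the 76 members tested, 74 had a 3′ UTR of 50 bases or more, with a median length of 391.5 bases against 1140 bases over the 10180 tested genes searched. The miR-23 complement AATGTGA was present in 4 members (5.405%, against 16.31% of all genes). The miR-24 complement CTGAGCC was present in 12 members (16.22%, against 18.94%), and the miR-27 complement ACTGTGA in 10 (13.51%, against 17.04%). At least 1 of the 3 complements was found in 20 members, and none in 54. Those of the members whose values the results turn on are shown with 11 bases on either side, complement in capitals.
Mrpl11 with miR-24, first: cacagaggaagCTGAGCCaaaggacttca
Mrpl11 with miR-24, second: gctcttacctcCTGAGCCatctctctact
Mrps35 with miR-24: gttcttaaccaCTGAGCCatctcgtttag
Mrps35 with miR-27: gaagaaccagcACTGTGAtccagggcggg
Mrpl36 with miR-24: taagaggctgcCTGAGCCaaaaagctctt
Mrps12 with miR-27: gctcaaatcttACTGTGAttcagcaagac
The sites of Mrpl11 lie at bases 64 to 70 and 735 to 741 of a 2220-base 3′ UTR. In Mrps35, with a 3′ UTR of 3168 bases, the miR-24 complement lies at bases 1578 to 1584 and that of miR-27 at bases 1887 to 1893. Every miR-24 complement in these 3 genes is followed by A, a base that strengthens microRNA sites, while the miR-27 complements of Mrps35 and Mrps12 are followed by another base. The longer run CTGAGCCATCT, which also occurs in antisense copies of the B2 repeat family, was present in 3 of the 12 members with a miR-24 complement (Mrpl11, Mrpl45 and Mrps35; 25%, against 10.4% of all genes with one). Repeat annotation was not used here.

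Treg cells expressed mitoribosomal protein genes at moderate, even levels. For the 76 members tested, the median of the mean levels over 18 libraries was 30.8 RPKM (quartiles 16.0 and 41.4). It was 15.0 RPKM over all genes tested. Medians of the large and small subunit genes tested were alike, at 30.4 and 32.2 RPKM. The median coefficient of variation of these members across libraries was 10.98%, against 15.5% for all genes tested. The members and all genes were not matched for level. Highest were Mrpl52 (268 RPKM, range 205 to 315), a protein added in the mitochondrial lineage, and then Mrpl24 (123 RPKM), Mrpl33 (111 RPKM), Mrps21 (98.4 RPKM) and Mrps16 (88.1 RPKM), all relatives of bacterial ribosomal proteins. Lowest were Mrpl35 (5.89 RPKM), Mrps33 (4.91 RPKM), Mrpl17 (4.05 RPKM), Mrps36 (3.94 RPKM) and Mrpl23 (0.38 RPKM). For Mrpl23, an annotated pseudogene (Mrpl23-ps1) is identical over 81.6% of the coding sequence, so its reads may have been divided or dropped. Mrps36, also low, is now known as a component of the 2-oxoglutarate dehydrogenase complex. The annotation holds 8 near-identical genes for it, of up to 99.35% identity over the coding sequence, so its reads may likewise have been divided or dropped.

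**Figure D1:**
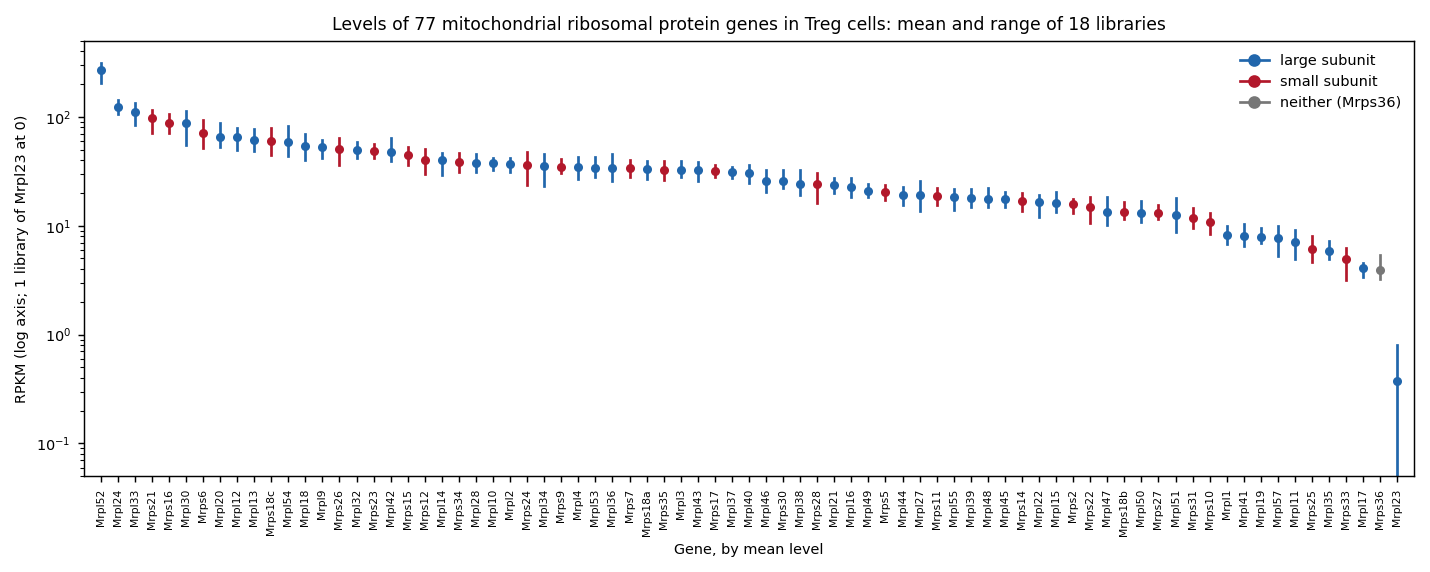
Mean level (point) and range over 18 libraries (bar) of each of the 77 genes, in RPKM on a log axis, coloured by subunit. Most members lie between 4 and 130 RPKM, with Mrpl52 above them and Mrpl23 below.

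As a group these genes shifted little between genotypes. For each library, the median over the 76 members of the log2 difference from each gene's 18-library mean was taken. The 3 WT libraries gave -0.04, 0.00 and 0.03, the DKO libraries -0.21, -0.04 and 0.14, and the miR-23 Tg libraries 0.05, 0.17 and -0.03. In miR-24 Tg the values were -0.10, -0.17 and 0.06, in miR-27 Tg -0.10, 0.04 and 0.11, and in cluster Tg 0.06, -0.01 and 0.12. Every group overlapped with WT. The 6 group means spanned 0.13, less than the 0.36 between the lowest and highest DKO libraries. Summed over the 77 genes, the level was 2773 ± 54.4 RPKM (SD, n = 3) in WT, 2703 ± 387 in DKO and 2869 ± 228 in miR-23 Tg. With miR-24 overexpressed it was 2556 ± 224 RPKM, with miR-27 2712 ± 231 RPKM, and with the whole cluster 2873 ± 148 RPKM.

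Some features of the whole libraries bear on these values. Depth is not given with the table; from the steps of low values it was estimated at 20.9 to 31.9 megareads. The estimate is rough, since only 25.5 to 33.2% of low values lay within 0.05 of a whole read. The 7 Treg and T cell markers (Foxp3, Il2ra, Ctla4 and others) were present in all libraries, with sums of 1693 to 2281 RPKM. Markers of some other cells moved with genotype. The 9 B cell markers summed to 19.5 to 25.03 RPKM in the WT and DKO libraries and to 29.9 to 108 RPKM in the libraries with a transgene. They were highest in miR-27 Tg library 3 (108 RPKM) and miR-24 Tg library 1 (93.5 RPKM). The 9 myeloid markers summed to 90.5 to 131 RPKM in WT and DKO and to 117 to 251 RPKM with a transgene, again highest in miR-24 Tg library 1. None of the 9 B cell or 9 myeloid markers was at 0 in all libraries of a group. The 3 plasma cell markers summed to 0.96 to 2.30 RPKM in WT and DKO and to 3.02 to 102 RPKM with a transgene. Sums of natural killer (NK) and CD8 T cell markers overlapped with WT in each group but miR-24 Tg, where they lay above WT. Erythroid or platelet sums overlapped with WT in each group and reached 148 RPKM in miR-27 Tg. The 24 cell cycle genes all passed the test as higher in miR-27 Tg than in WT, with medians of 0.37, 1.74 and 1.72 (log2, from the 18-library mean) in its 3 libraries, against -1.31, -0.71 and -0.42 in WT. The medians of miR-23 Tg (0.39, 0.39 and 0.32) and cluster Tg (0.32, 0.185 and 0.51) also lay above all WT libraries. Those of miR-24 Tg (-0.20, -0.89 and 0.37) and DKO (-1.42, -0.99 and -0.26) overlapped with WT. In such sorted bulk samples, a change in the share of cells of a kind and a change in RNA per cell cannot be told apart.

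**Figure D2:**
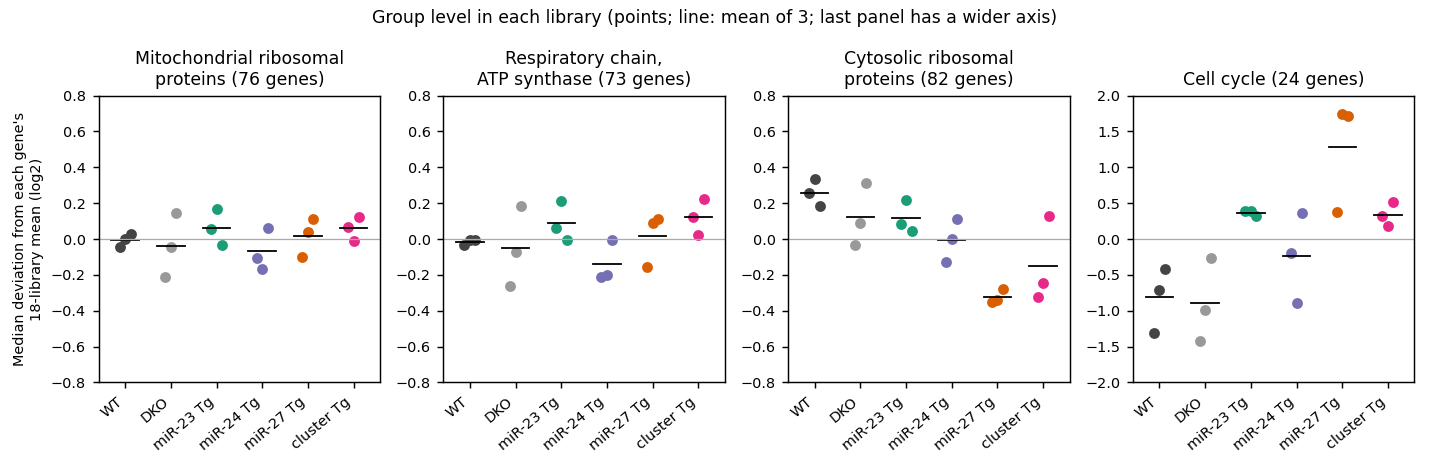
Median log2 deviation from each gene's 18-library mean in each library (points; line, mean of 3) for 4 gene groups. Mitoribosomal genes stay within -0.21 and 0.17 in every library, while all 3 miR-27 Tg libraries lie below all WT libraries for cytosolic ribosomal proteins and above them for cell cycle genes. The miR-24 Tg and cluster Tg libraries also lie below WT for cytosolic ribosomal proteins, and the miR-23 Tg and cluster Tg libraries above WT for cell cycle genes.

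Against WT, few members passed the test (limma, Benjamini-Hochberg adjusted p under 0.05 over 11520 genes). In miR-27 Tg, 1 of 76 was higher and 4 were lower, where 15.9% of all genes were called higher and 12.7% lower. In cluster Tg, 3 were higher and 2 lower, against 13.8% and 10.5% of all genes. In miR-24 Tg none was higher and 2 were lower, against 4.6% and 4.38%, and 8 members had an unadjusted p under 0.05. No member was called in miR-23 Tg, where 0.156% of all genes were higher and 0.2% lower, or in DKO, where the shares were 0.0174% and 0%. In each of these last comparisons, 2 members had an unadjusted p under 0.05. In sum, 9 members were called in at least 1 of these 5 comparisons, which all use the same 3 WT libraries, and 67 in none. The shares called were thus below the background in miR-27 Tg and cluster Tg and close to or below it elsewhere, as counts and without a test of the list.

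The differences themselves were small. In miR-27 Tg, the median log2 difference of the 76 members from WT was 0.04, against 0.01 over all genes, and the median size regardless of sign was 0.11, against 0.22. In cluster Tg the median size was 0.09, against 0.21 over all genes. The 95% confidence interval of the difference lay within 1.5-fold either way for 70 of 76 members in miR-27 Tg (92.1%), against 58% of all genes, and for 65 in cluster Tg (85.5%), against 59.4%. Intervals were within this bound for 70 members in miR-24 Tg, 73 in miR-23 Tg and all 76 in DKO. On this scale Mrpl30 in miR-27 Tg was the 1 member that differed from WT by more than 1.5-fold, against 18% of all genes there. In none of these contrasts were the members and all genes matched for level. With a pseudocount of 0.1, Mrps33 in miR-27 Tg (-0.64) and Mrpl11 in miR-24 Tg (-0.59) passed that bound as well, as did Mrps33 with median-of-ratios scaling (-0.60). The sign of the group's median was not stable: with the B cell marker score of each library as a covariate, it went from 0.04 to -0.10 in miR-27 Tg and from 0.06 to -0.06 in miR-23 Tg.

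Genes for the proteins of the cytosolic ribosome, which translates nuclear messages, had larger counts on the lower side. Of 82 such genes tested, 51 were lower and 1 higher in miR-27 Tg than in WT, with a median log2 difference of -0.60; 30 were lower and 2 higher in cluster Tg, with a median of -0.40. Within cluster Tg the libraries were unlike: their median deviations for these genes were -0.33, -0.25 and 0.13, the last close to the lowest WT library (0.19). Nuclear genes for subunits of the respiratory chain and ATP synthase, the complexes that mitochondrial translation completes, had few calls as well. Of 73 tested, 1 was higher and 3 lower in miR-27 Tg, and 6 higher and 2 lower in cluster Tg. The libraries with the lowest and highest mitoribosomal level among the DKO samples, DKO library 1 (-0.21) and DKO library 3 (0.14), were also lowest and highest of that group for the respiratory chain genes (-0.26 and 0.18), the cytosolic ribosomal protein genes (-0.04 and 0.31) and the cell cycle genes (-1.42 and -0.26).

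**Figure D3:**
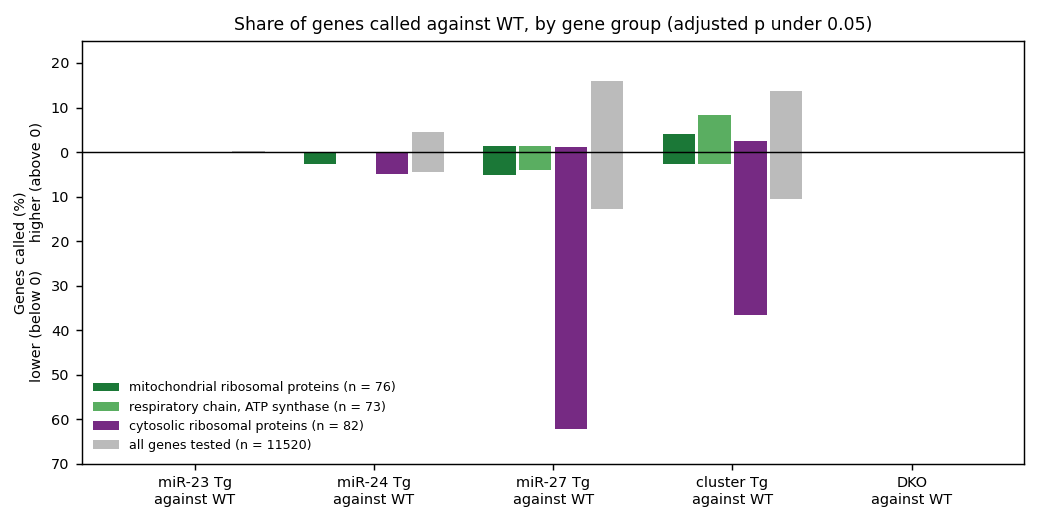
Percent of genes called higher (above 0) or lower (below 0) than WT in each of 5 groups, for mitoribosomal proteins and 3 other gene groups. In miR-27 Tg and cluster Tg the bars of the mitoribosomal proteins are shorter than those of all genes tested, and those of the cytosolic ribosomal proteins extend furthest below 0.

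**Figure D4:**
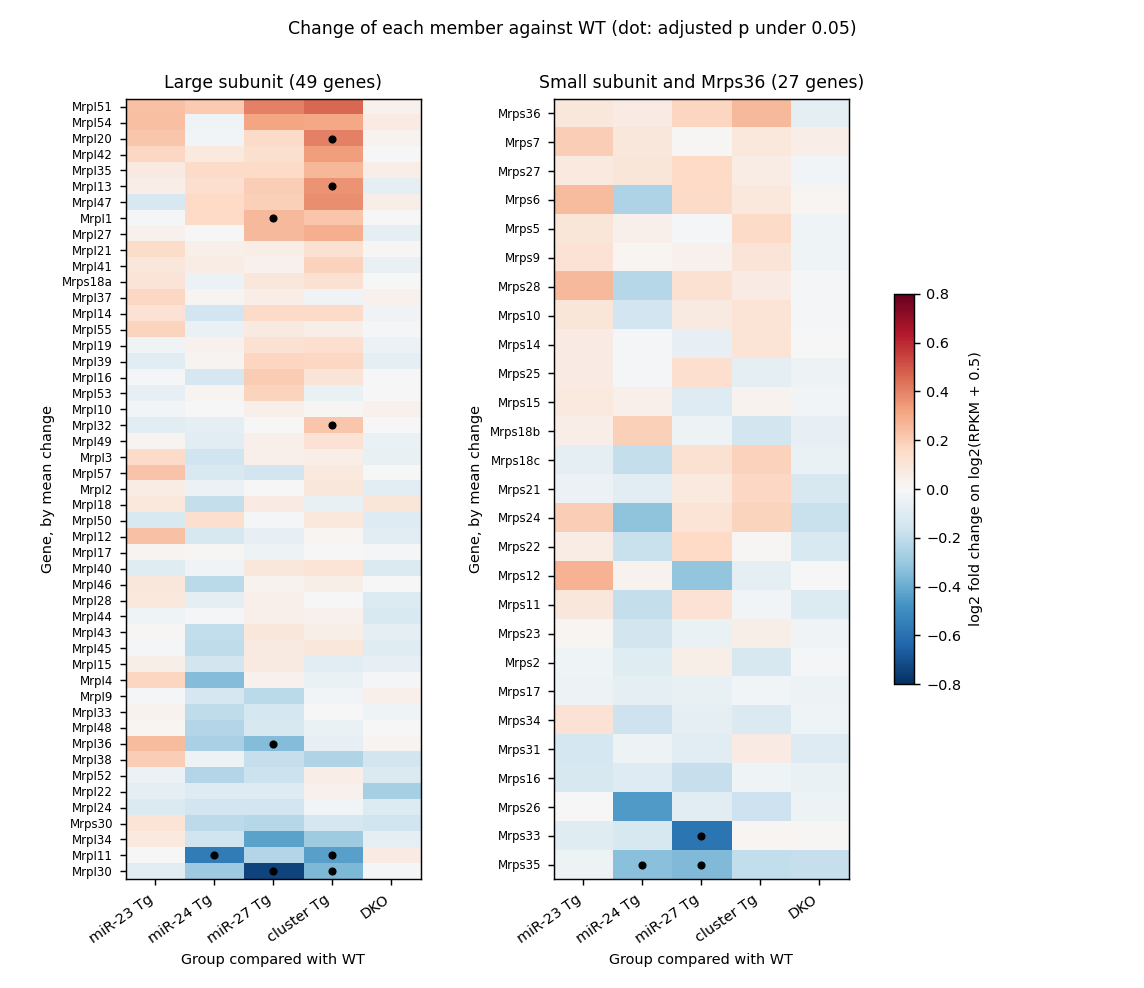
Log2 fold change against WT of the 76 members tested (rows, by subunit and mean change) in 5 groups (columns); dots mark an adjusted p under 0.05. The 12 dots fall on 9 genes, with 8 of them on lower values.

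In miR-24 Tg cells, 2 mitoribosomal genes fell: Mrpl11 and Mrps35. Mrpl11, at chr19:4962147-4966999 on the plus strand (GRCm38), encodes the large subunit protein at the base of the stalk where translation factors dock. Its level was 5.16, 4.91 and 5.80 RPKM in the miR-24 Tg libraries and 8.23, 8.004 and 7.78 RPKM in the WT libraries. All 3 miR-24 Tg values lie below all WT values. The log2 fold change was -0.56 (SE 0.11, 1.47-fold lower, adjusted p = 0.00623), and the call held in each of 14 alternative analyses, with adjusted p from 0.00284 to 0.0303.

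Mrpl11 was low as well with the whole cluster, which contains miR-24. Cluster Tg libraries gave 5.36, 5.52 and 6.52 RPKM, all below WT, a log2 fold change of -0.44 (SE 0.11, adjusted p = 0.00994). That call was lost in 1 of 14 alternatives, without cluster Tg library 1 (log2 fold change -0.39, adjusted p = 0.0534). Levels in miR-23 Tg (7.59, 8.33 and 8.09 RPKM) and DKO (7.62, 8.44 and 9.20 RPKM) overlapped with those of WT. In miR-27 Tg they spread from 5.76 over 6.67 to 7.94 RPKM, and the difference from WT did not pass the test. Without miR-27 Tg library 3, the highest, it passed (-0.34, adjusted p = 0.0351).

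Mrps35, at chr6:147042764-147073991 on the plus strand, encodes a small subunit protein that bacterial ribosomes lack. WT libraries gave 39.3, 35.9 and 35.2 RPKM. In miR-24 Tg the level was 30.1, 26.4 and 30.9 RPKM, and in miR-27 Tg 28.3, 29.2 and 28.7 RPKM, so that both groups lay wholly below WT. The log2 fold change was -0.33 in miR-24 Tg (SE 0.08, adjusted p = 0.0233) and -0.35 in miR-27 Tg (SE 0.08, adjusted p = 0.00641). The first was lost in 6 of 14 alternatives: without miR-24 Tg library 2 (-0.26), WT library 1 (-0.29) or WT library 2 (-0.35), without library 1 of miR-24 Tg together with library 3 of miR-27 Tg (-0.36), with only the 2 groups in the model (-0.33), and with the B cell score (-0.41). The second was lost only with the B cell score (-0.44, adjusted p = 0.075). In cluster Tg, with 33.5, 30.7 and 31.7 RPKM, Mrps35 was again below all WT libraries but did not pass (log2 fold change -0.20, adjusted p = 0.0996).

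Both members called in miR-24 Tg thus hold miR-24 complements, and none of the 62 members searched without one was called. Read over the whole list, the median log2 difference from WT was -0.18 for the 12 members with a complement and -0.06 for the others. In the same comparison the 4 members with a miR-23 complement had a median of -0.20, against -0.08 for the 70 without one. Of those 4, Mrpl48 and Mrps30 also hold a miR-24 complement. The 10 members with a miR-27 complement had a median of -0.03, against -0.09 for the 64 without one. Members with a miR-24 complement also had the lower median in miR-27 Tg (-0.04 against 0.04). There, 2 of the 12 and 2 of the 62 were called lower. In cluster Tg, where miR-24 is among the overexpressed microRNAs, their median was lower as well (-0.06 against 0.07). Among all genes searched, those with the miR-24 complement had a median in miR-24 Tg of -0.03 and those without one 0.02, and 7.62% against 3.81% were called lower. Mrpl51, with a complement, stood at 0.21, so a match did not go with a lower level in every case. Whether the complements had a part in these values was not tested.

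The members closest to passing in miR-24 Tg were Mrps26 and Mrpl4. Mrps26, a small subunit protein of the mitochondrial lineage, was at 37.7, 35.8 and 45.9 RPKM against 58.0, 50.6 and 54.9 RPKM in WT (log2 fold change -0.45, adjusted p = 0.052). Mrpl4, a relative of bacterial L4, was at 28.3, 26.6 and 27.2 RPKM against 37.4, 33.2 and 34.5 RPKM (-0.35, adjusted p = 0.0633). Neither group of values overlapped with WT. Mrps26 passed without miR-24 Tg library 3 (-0.56, adjusted p = 0.0326), and Mrpl4 passed with only the 2 groups in the model (adjusted p = 0.0434). Mrpl30 (-0.29, adjusted p = 0.143) did not pass there. Among higher members, Mrps18b (0.19), Mrpl1 (0.16) and Mrpl35 (0.16) had the smallest p-values, and none passed.

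In miR-27 Tg cells, Mrpl30, Mrps33, Mrps35 and Mrpl36 fell and Mrpl1 rose. Mrpl30, at chr1:37890477-37898535 on the plus strand, encodes a large subunit protein with a bacterial relative. Its level was 59.96, 69.0 and 55.2 RPKM in miR-27 Tg and 99.8, 108 and 99.8 RPKM in WT, with a wide gap between the groups. The log2 fold change was -0.74 (SE 0.12, 1.67-fold lower, adjusted p = 0.000483), the largest among the members in any comparison with WT. It passed in all 14 alternatives, with adjusted p from 0.000492 to 0.045. In cluster Tg, with 74.8, 74.0 and 92.0 RPKM, Mrpl30 was also below all WT libraries (-0.36, SE 0.12, adjusted p = 0.0383). That smaller change was lost in 8 of 14 alternatives, among them the removal of cluster Tg library 1 (-0.31), cluster Tg library 2 (-0.30), WT library 1 (-0.38), WT library 2 (-0.32) or WT library 3 (-0.38), where adjusted p reached 0.145. It was also lost with the B cell score as a covariate.

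Mrps33 encodes a small subunit protein without a bacterial relative and lies at chr6:39801804-39810988 on the minus strand. Its low level fell further in miR-27 Tg, with 3.68, 3.36 and 3.16 RPKM against 4.48, 5.74 and 5.88 RPKM in WT. The log2 fold change of -0.58 (SE 0.15, adjusted p = 0.00872) was lost only with the B cell score as a covariate (-0.57, adjusted p = 0.201). Cluster Tg values, at 4.85, 5.50 and 5.87 RPKM, overlapped with WT. For Mrpl30 and Mrps33 the annotation holds 4 and 2 near-identical genes elsewhere, of up to 94.8% and 99.7% identity over the coding sequence. Whether reads were shared with these copies depends on counting steps not given in the sources used here, so both levels are uncertain in that respect.

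Mrpl36 encodes a very small protein of the large subunit, related to bacterial L36. Its level was 27.1, 26.2 and 28.5 RPKM in miR-27 Tg and 34.7, 34.4 and 35.5 RPKM in WT, a log2 fold change of -0.35 (SE 0.11, adjusted p = 0.028). The call was lost in 7 of 14 alternatives, including the removal of miR-27 Tg library 1 (-0.34) or library 2 (-0.32) or of WT library 1 (-0.35), 2 (-0.36) or 3 (-0.34). The B cell score as a covariate also ended it (-0.37, adjusted p = 0.273). Mrpl1, a relative of bacterial L1 in the mobile stalk at the exit site, was at 8.35, 10.001 and 9.20 RPKM against 6.98, 7.55 and 8.26 RPKM (0.26, SE 0.09, adjusted p = 0.0402). Its groups nearly touch, and the call was lost in 9 of 14 alternatives, among them the removal of miR-27 Tg library 2 (0.20) or 3 (0.26) or of WT library 1 (0.20) or 2 (0.26), and the B cell score as a covariate (0.22, adjusted p = 0.433).

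Of the 4 members lower in miR-27 Tg, Mrps35 alone holds a miR-27 complement. In miR-27 Tg the median log2 difference from WT was -0.06 for the 10 members with one and 0.04 for the 64 without, against -0.06 and 0.03 for all genes with and without it. Mrps12, the decoding center protein, holds a complement and was at 30.1, 31.1 and 36.0 RPKM against 39.9, 40.5 and 40.5 RPKM in WT, below all WT libraries, but did not pass (-0.32, adjusted p = 0.0734). It passed with only the 2 groups in the model (adjusted p = 0.0423). Mrpl35 and Mrpl47, with 2 complements each, stood at 0.15 and 0.19.

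Not passing in miR-27 Tg were Mrpl51 (0.41, adjusted p = 0.153), Mrpl54 (0.31, adjusted p = 0.155) and Mrps27 (0.16, adjusted p = 0.127), the higher members with the smallest p-values after Mrpl1. Without miR-27 Tg library 1, these 3 passed with Mrpl1, giving 4 higher members in place of 1, and their changes were 0.58, 0.49 and 0.23. The libraries that remain then are those with the high cell cycle levels given above. The part of cell cycle state, or of other cells, in these values was not tested.

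Cells with the whole cluster showed 3 higher members, all large subunit relatives of bacterial proteins, beside the lower Mrpl11 and Mrpl30. Mrpl20, an assembly protein of the large subunit in bacteria, was at 77.2, 69.9 and 87.5 RPKM against 58.8, 58.6 and 59.1 RPKM in WT (log2 fold change 0.40, SE 0.12, adjusted p = 0.0253). Mrpl13 was at 77.1, 65.1 and 73.9 RPKM against 55.6, 56.4 and 56.0 RPKM (0.36, SE 0.11, adjusted p = 0.0341). Mrpl32, whose maturation by a mitochondrial protease is a step in ribosome assembly, was at 56.0, 55.3 and 59.2 RPKM against 48.5, 47.1 and 50.4 RPKM (0.22, SE 0.07, adjusted p = 0.0428). Each of the 3 was above all WT libraries. These calls were fragile: none was made without cluster Tg library 1, cluster Tg library 3, WT library 1, WT library 2 or WT library 3, or with the B cell score, although the changes kept their sign, from 0.32 to 0.48 for Mrpl20, 0.31 to 0.43 for Mrpl13 and 0.19 to 0.25 for Mrpl32. For Mrpl32, 2 near-identical genes are annotated elsewhere.

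**Figure D5:**
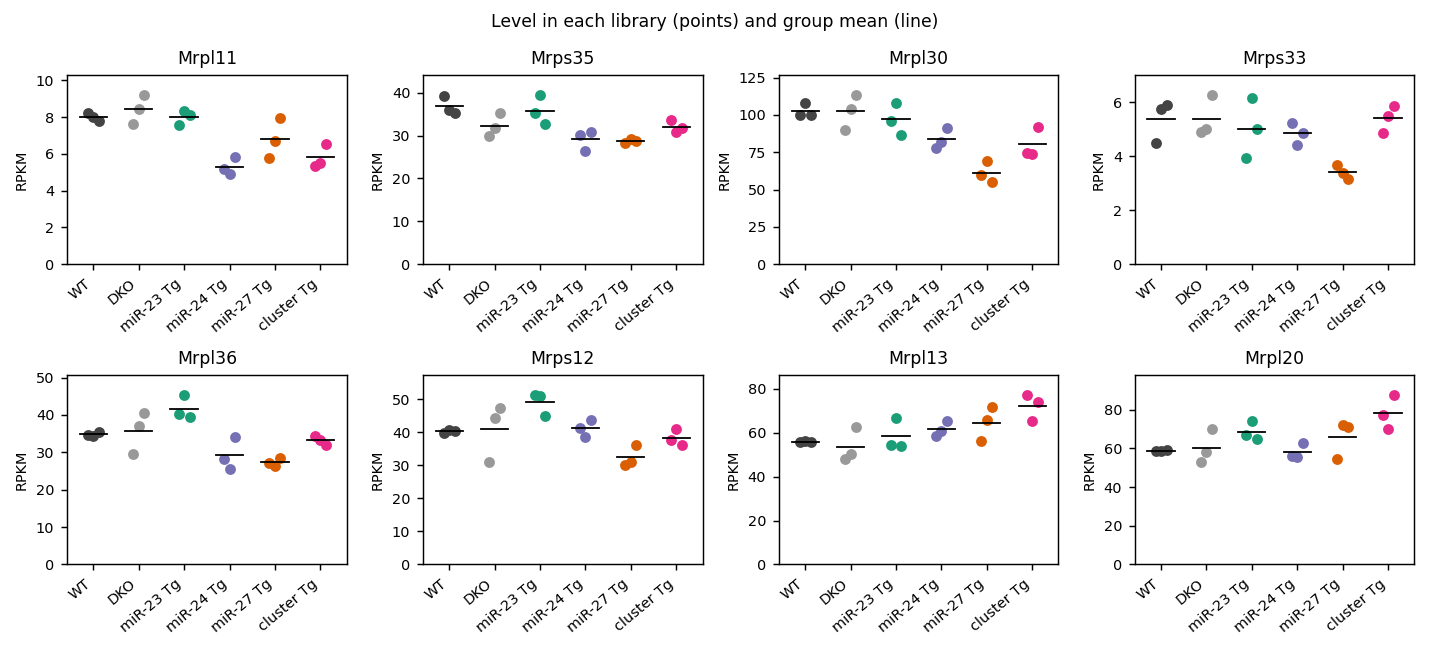
Level in RPKM of 8 members in each library (points) and the group mean (line). Mrpl11 is lowest in miR-24 Tg and cluster Tg, Mrpl30 and Mrps33 are lowest in miR-27 Tg, and Mrpl13 and Mrpl20 are highest in cluster Tg.

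Among members with no call in cluster Tg, Mrps18b (12.002 ± 0.46 RPKM, SD, n = 3) was below WT (13.4 ± 0.23 RPKM) without overlap (-0.15, adjusted p = 0.164), and Mrpl38 stood at -0.24 (adjusted p = 0.212). Mrps18b is of a trio that descends from a lone bacterial protein, S18. The others, Mrps18a of the large subunit and Mrps18c of the small, were at 32.3 and 59.4 RPKM in WT and did not pass in any group. Their log2 differences from WT ranged from -0.05 to 0.12 and from -0.19 to 0.19.

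Neither miR-23 overexpression nor loss of both clusters gave a call. In miR-23 Tg the smallest p-values belonged to higher members. Mrpl36 was at 40.3, 45.3 and 39.3 RPKM against 34.7, 34.4 and 35.5 RPKM in WT (0.25, adjusted p = 0.34), and Mrps12 at 51.2, 50.9 and 45.0 RPKM against 39.9, 40.5 and 40.5 RPKM (0.28, adjusted p = 0.352). Mrpl37 followed, at 0.16. Values of these 3 lay above all WT libraries, and the differences did not pass the test after adjustment. The 4 members with a miR-23 complement (Mrpl18, Mrpl32, Mrpl48 and Mrps30) had differences from -0.09 to 0.11.

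In DKO, 57 of 76 members stood below WT, with differences from -0.26 to 0.10 and a median of -0.03. Among all genes searched, 49.3% of those with a miR-24 complement and 53.2% of those without one stood below WT. For members these shares were 75% and 74.2%. In miR-24 Tg the shares of members below WT, with and without a miR-24 complement, were 83.3% and 69.4%, against 55.2% and 45.7% of all genes. In miR-23 Tg they were 33.3% and 33.9%, against 50.2% and 46.3%. In miR-27 Tg they were 58.3% and 32.3%, against 46.7% and 48.3%, and in cluster Tg 66.7% and 30.6%, against 53.8% and 45.2%. The DKO libraries were unlike, with median deviations of the members of -0.21, -0.04 and 0.14. Mrpl22 (14.7 ± 2.37 against 17.6 ± 0.59 RPKM), Mrps35 (32.4 ± 2.79 against 36.8 ± 2.2 RPKM) and Mrps30 (24.5 ± 2.36 against 27.3 ± 1.61 RPKM) had the smallest p-values on the lower side, all with an adjusted p of 1. On the higher side were Mrpl11 (0.07), Mrpl18 (0.10) and Mrps7 (0.05). The 95% interval for Mrpl11, not adjusted for the number of genes, ran from -0.17 to 0.30. The interval for Mrps35 ran from -0.36 to -0.01.

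Groups other than WT were also compared directly. These comparisons test whether the groups differ, and do not separate the microRNAs from the other differences between libraries given above. Between miR-27 Tg and miR-23 Tg, 1 member was higher in miR-27 Tg and 6 were lower, against 12.4% and 10.9% of all genes. Mrpl30 (-0.65, SE 0.12, adjusted p = 0.00142), Mrpl36 (-0.60, SE 0.11, adjusted p = 0.00171) and Mrps12 (-0.59, SE 0.13, adjusted p = 0.0042) were lower in miR-27 Tg in every alternative run. Mrps12 stood out in this comparison because it was high in miR-23 Tg and low in miR-27 Tg, without a call against WT on either side. Mrps30, Mrps33 and Mrps35 were lower too, and Mrpl1 higher. The lower count was 3 without miR-23 Tg library 2. The Mrpl1 call was lost without library 1 or 3 of miR-23 Tg or library 2 or 3 of miR-27 Tg, which left 0 higher.

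Between miR-27 Tg and miR-24 Tg, 4 members were higher in miR-27 Tg and 3 lower, against 13.2% and 10.9% of all genes. Mrpl4 (0.38, adjusted p = 0.0222), Mrpl11 (0.32, adjusted p = 0.0428) and Mrps11 (0.30, adjusted p = 0.0348) were the higher ones of largest change, with Mrpl45 the fourth, and Mrps33 (-0.45), Mrpl30 (-0.45) and Mrps18b (-0.23) were lower. These counts depended on a few libraries: the higher count was 10 without miR-27 Tg library 1, 0 without miR-27 Tg library 2 or 3 or miR-24 Tg library 2, and 1 without miR-24 Tg library 1. The lower count was 0 without miR-24 Tg library 3 or miR-27 Tg library 3, and 1 without miR-24 Tg library 1, miR-24 Tg library 2 or miR-27 Tg library 2.

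Cluster Tg differed from miR-27 Tg in 1 member, Mrps33, which was higher with the whole cluster (5.41 ± 0.52 against 3.40 ± 0.26 RPKM, log2 difference 0.60, SE 0.15, adjusted p = 0.0273), against 3.5% of all genes higher and 3.35% lower. Of the 14 alternatives, 7 lost this call, including removal of miR-27 Tg library 2 (0.59) or 3 (0.55) or of cluster Tg library 2 (0.58) or 3 (0.54). Against DKO, cluster Tg had 3 members higher and 2 lower, where 15.1% and 11.6% of all genes were called. The higher ones were Mrpl13 (0.43), Mrpl20 (0.37) and Mrpl32 (0.23), and the lower ones Mrpl11 (-0.50, adjusted p = 0.00387) and Mrpl30 (-0.35, adjusted p = 0.0391), the genes also called in the same direction against WT, with which this comparison shares the cluster Tg libraries. Only the Mrpl11 call held in all 14 alternatives, and the higher count ranged from 0 (without cluster Tg library 1, DKO library 1 or DKO library 2) over 1 (without cluster Tg library 3) to 10 (without DKO library 3). The lower count was 1 without cluster Tg library 1 or 2 or DKO library 2 or 3.

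A few proteins of the mitoribosome carry other names. Of 6 such genes, all tested, 1 fell in miR-24 Tg and 1 rose in cluster Tg. Dap3, a GTP-binding small subunit protein, was at 20.4 ± 1.69 RPKM in miR-24 Tg against 24.4 ± 0.52 RPKM in WT (log2 fold change -0.25, adjusted p = 0.0446). Aurkaip1, a small subunit protein, was at 71.8 ± 1.64 RPKM in cluster Tg against 57.7 ± 2.77 RPKM (0.31, adjusted p = 0.0193). Ptcd3, Chchd1, Gadd45gip1 and Ict1 did not pass against WT in any group.

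Calls among genes around the mitoribosome are to be read against those over all genes tested, of which 28.6% were called in miR-27 Tg, 24.4% in cluster Tg and 8.98% in miR-24 Tg. The shares in the lists of translation factors, assembly factors, and genes of mitochondrial DNA and transcription lay below these in miR-27 Tg and cluster Tg. Of 16 mitochondrial translation factors, 2 rose and 1 fell in miR-27 Tg, 2 rose in cluster Tg and 1 rose in miR-24 Tg. Gfm2, which splits the mitoribosome for recycling, rose in all 3, from 12.3 ± 0.81 RPKM in WT to 15.1 ± 0.52 in miR-27 Tg, 14.9 ± 0.99 in cluster Tg and 15.1 ± 0.75 in miR-24 Tg (adjusted p = 0.00942, 0.019 and 0.027). The elongation factor Gfm1 rose (0.25) and the recycling factor Mrrf fell (-0.42) in miR-27 Tg, and the release factor family gene Mtrf1 rose in cluster Tg (0.51). Of 26 genes for mitoribosome assembly and ribosomal RNA modification, 4 fell and 1 rose in miR-27 Tg, 2 fell in cluster Tg and 1 rose in miR-24 Tg. Rpusd4, a pseudouridine synthase, fell by 0.36 and 0.30 (log2) in miR-27 Tg and cluster Tg. Mettl17, an assembly factor, fell there by 0.48 and 0.58. The gene that rose in miR-24 Tg was Fastkd2 (0.32, adjusted p = 0.0168).

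Among 17 mitochondrial tRNA synthetases, 3 fell and 2 rose in miR-27 Tg, and 4 fell and 1 rose in cluster Tg, shares close to those over all genes (29.4% of the list in each group). Wars2, for tryptophan, went from 3.61 ± 0.24 RPKM in WT to 2.31 ± 0.07 RPKM with miR-27 overexpressed and 2.02 ± 0.27 RPKM with the whole cluster (log2 fold changes -0.55 and -0.71). Tars2, for threonine, fell by 0.34 and 0.44. Of 13 genes for mitochondrial DNA upkeep and transcription, 2 fell in each of these groups, among them Peo1, the replicative helicase, in both (-0.35 and -0.30), and Polg, the DNA polymerase, in cluster Tg (-0.33). Of 11 regulators tested, Myc, a driver of ribosome production, fell in miR-24 Tg (-0.43), miR-27 Tg (-0.65) and cluster Tg (-0.67), from 80.0 ± 9.23 RPKM in WT to 59.3 ± 3.48, 51.2 ± 9.70 and 50.04 ± 5.46 RPKM. Yy1 fell in miR-24 Tg (-0.23). Another regulator, Pprc1, fell in cluster Tg (-0.44), from 19.0 ± 0.72 RPKM in WT to 14.0 ± 1.26 RPKM. Nrf1, Gabpa and Tfam, factors known to act on nuclear genes for mitochondrial proteins or on mitochondrial DNA, did not pass in any group. None of these lists had a call in miR-23 Tg or DKO.

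Promoter letters were also searched, and none of those searched was found in all members. For 68 of the 77, RefSeq (GRCm38.p6) gives a promoter window, from 250 bases before to 50 bases after the start. Searched on both strands, the ETS core CCGGAAG, the kind of letters bound by GABP, was present in 36.8% of them, against 9.93% of 27025 genes and 21.8% of the tested genes with a window. The NRF1 core GCGCATGC was present in 11.8%, against 3.05% and 6.4%, and the YY1 core AAGATGG in 19.1%, against 7.28% and 8.87%. The E-box CACGTG, which MYC proteins among others bind, was present in 7.35%, against 8.09% and 12.1%. None of the 4 was found in 29 members, among them Mrpl11 and Mrpl30. These letters are a description of the windows and show no binding.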

How the data were processed

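RNA was sequenced from sorted Treg cells, 6 genotypes with 3 libraries each (total RNA with small RNAs kept, Illumina TruSeq RNA libraries, sequenced on an Illumina HiSeq, per the labels' protocols). The authors deposited 1 table of RPKM values with 23953 entries, of which 4 were left out for a repeated symbol. STAR 2.2.0c, HOMER and the build mm10 (GRCm38) are named per the submitters' processing notes; the role of each, the annotation and the use of strand are not given in the sources used here. Because values are RPKM, no count test was used. Low values did not fall on whole reads closely enough to rebuild counts.

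Values were taken as log2(RPKM + 0.5), and fold changes are on that scale, which understates changes of low genes. Genes that reached 1 RPKM in 3 or more of 18 libraries were tested with limma 3.58.1 (R 4.3.3, mean-variance trend, 2-sided), 1 model with a mean per genotype, and Benjamini-Hochberg adjustment over 11520 genes within each of 9 comparisons. Calls have an adjusted p under 0.05. The script was tested on simulated data. The 3′ UTRs and gene copies came from GENCODE vM21 (BLAST 2.17.0, at least 90% identity over 50% of the coding sequence), microRNAs and promoters from RefSeq. By these criteria, 24 of the 77 members have a near-identical copy and 10 share 20% or more of their exon bases with another gene.

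The members and the gene lists were chosen with earlier results of these data known. Named members were the called ones (at most 10 per direction against WT, 3 between other groups), the 3 with the smallest p where fewer than 3 were called in a direction, members called in 2 or more comparisons, the 5 highest and 5 lowest by mean level, and Mrpl12, Mrps12, Mrps18a, Mrps18b, Mrps18c, Mrps30 and Mrps36. Of the pathway lists, the genes named are among the 3 of smallest p per comparison with WT. Members named as examples with a seed complement or a large spread between libraries were chosen after their values were seen. Alternatives changed the pseudocount, filter, scaling, covariates, the libraries in the model, and the replicate number.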

Additional observations from a re-analysis of the deposited data

Results flagged for a closer look

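These members differed between 2 groups other than WT by a test of the difference itself (limma, adjusted p under 0.05, log2 differences). In miR-27 Tg against miR-23 Tg, Mrpl30 (-0.65), Mrpl36 (-0.60), Mrps12 (-0.59), Mrps33 (-0.49), Mrps30 (-0.34) and Mrps35 (-0.31) were lower, and Mrpl1 (0.27) was higher. In miR-27 Tg against miR-24 Tg, Mrpl4 (0.38), Mrpl11 (0.32), Mrps11 (0.30) and Mrpl45 (0.27) were higher, and Mrps33 (-0.45), Mrpl30 (-0.45) and Mrps18b (-0.23) were lower. Mrps33 was higher in cluster Tg than in miR-27 Tg (0.60). In cluster Tg against DKO, Mrpl13 (0.43), Mrpl20 (0.37) and Mrpl32 (0.23) were higher, and Mrpl11 (-0.50) and Mrpl30 (-0.35) were lower.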

How the results depend on the processing

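Of 12 calls of members against WT, 2 held in all 14 alternatives: Mrpl11 in miR-24 Tg and Mrpl30 in miR-27 Tg. Pseudocounts of 0.1 and 1 changed no count of called members by over 1.5 times. Leaving out each library in turn, the count lower in miR-24 Tg ranged from 1 to 3, from 3 to 6 for miR-27 Tg and from 0 to 2 for cluster Tg, and the count higher from 0 to 4 (miR-27 Tg) and from 0 to 3 (cluster Tg); between groups, the ranges were 0 to 1 higher and 3 to 7 lower for miR-27 Tg against miR-23 Tg, 0 to 10 and 0 to 2 for miR-27 Tg against miR-24 Tg, 0 to 1 higher for cluster Tg against miR-27 Tg, and 0 to 10 and 1 to 2 for cluster Tg against DKO. With the B cell score as a covariate the counts were 1 lower in miR-24 Tg, 0 higher and 1 lower in miR-27 Tg, 0 higher and 1 lower in cluster Tg, 0 higher for miR-27 Tg against miR-23 Tg, 1 higher against miR-24 Tg, 0 higher for cluster Tg against miR-27 Tg, and 1 and 1 for cluster Tg against DKO; calls over all genes in miR-27 Tg went from 28.6% to 4.72%. The score itself moved with genotype, and the cause was not tested.

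With only the 2 groups in the model, the count was 0 higher in miR-27 Tg, 1 lower in cluster Tg, 0 higher for miR-27 Tg against miR-23 Tg, 1 higher and 0 lower against miR-24 Tg, 0 higher for cluster Tg against miR-27 Tg, and 0 higher and 1 lower for cluster Tg against DKO, with fewer samples in each fit. With no filter, it was 0 higher in miR-27 Tg, 1 lower in cluster Tg, 0 and 2 higher for miR-27 Tg against miR-23 Tg and miR-24 Tg, and 1 lower for cluster Tg against DKO. With median-of-ratios scaling, it was 0 higher in miR-27 Tg, 1 higher in cluster Tg, and 0 and 2 higher for miR-27 Tg against miR-23 Tg and miR-24 Tg. Without library 1 of miR-24 Tg together with library 3 of miR-27 Tg, it was 1 lower in miR-24 Tg, 0 higher in miR-27 Tg, 0 higher for miR-27 Tg against miR-23 Tg, 0 and 0 against miR-24 Tg and 0 higher for cluster Tg against miR-27 Tg. The cause was not tested.

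Over all genes tested, replicate numbers showed no common pairing of the samples. In 45 pairs of same-numbered libraries of different groups, deviations from the group means had a median correlation of 0.00, from -0.17 to 0.19. The correlation exceeded 0.1 in 6 pairs. It was not taken over the members alone. Their median deviation was highest in library 3 of WT, DKO, miR-24 Tg, miR-27 Tg and cluster Tg, and in library 2 of miR-23 Tg. The cause was not tested. With the replicate block, counts were 2 higher for miR-27 Tg against miR-23 Tg and 7 higher against miR-24 Tg, and within 1.5 times elsewhere; against WT, Mrpl32 in cluster Tg lost its call, and Mrps26 (miR-24 Tg), Mrpl9 (miR-27 Tg), Mrpl42 and Mrpl47 (cluster Tg) gained one. Reversed signs, all without a call, were those of Mrps27 (-0.00731) and Mrpl51 (-0.0784) in miR-27 Tg with the B cell score, and of Mrpl18 and Mrps7 in DKO without DKO replicate 3; leaving out each library, Mrpl18 ranged from -0.0519 to 0.219 and Mrps7 from -0.0501 to 0.169. Depth limits Mrpl23, at 0.38 RPKM.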

Other observations

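Members could be followed over all 6 groups apart from any reference. The range of the 6 group means was widest for Mrpl30 (0.74 on the log2 scale), Mrpl11 (0.62), Mrpl36 (0.60), Mrps33 (0.60) and Mrps12 (0.59), and narrowest for Mrpl10 (0.06) and Mrpl17 (0.06), whose ranges were smaller than their SD within groups (0.11 and 0.11). Mrpl12, the stalk protein reported to bind mitochondrial RNA polymerase, ranged from 49.2 to 79.1 RPKM over the 18 libraries and did not pass against WT in any group, and Mrps36 ranged from 3.21 to 5.40 RPKM, likewise without a call.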
